A study of Mus musculus with 18 samples.

Results

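The effect of Mk5 silencing that C2C12 myotubes show both in BSA and in palmitic acid (PA) medium was measured in 12 of the 18 RNA-seq libraries of the study, 6 transfected with siMk5 and 6 with siNtc. C2C12 is a mouse myoblast line that fuses into multinucleated myotubes when serum is withdrawn. Confluent myoblasts received a pool of siRNAs against Mapkapk5 (siMk5), a pool against Mapk6 (siErk3) or a non-targeting pool (siNtc) at the start of differentiation. After 6 days of differentiation the myotubes spent 16 h without serum, either with 0.5 mM palmitic acid bound to BSA or with the BSA vehicle alone (0 mM). Each of the 6 groups had 3 libraries. All groups share the line, the transfection reagent and the absence of serum, and each silencing rests on 1 siRNA pool in 1 cell line, so an effect of the pool outside Mapkapk5 cannot be told apart from silencing. The labels do not say whether the replicates came from separate cultures, so p-values measure the spread between these libraries only.

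Mk5, encoded by Mapkapk5, is a serine/threonine kinase of the MAPK-activated kinase family that binds the atypical MAP kinase Erk3, encoded by Mapk6. Binding of Erk3 is known to activate Mk5 and to shift it from the nucleus to the cytoplasm. In skeletal muscle, the myosin heavy chain isoforms, their light chains and their binding proteins set whether a fiber contracts slowly or fast, and they are under the control of the myogenic factors Myod1, Myog, Myf5 and Myf6. Interferon-stimulated genes are a separate program, induced when a cell senses foreign or displaced nucleic acid, and palmitic acid is a known stress for myotubes.

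Counts per library ran from 13041979 to 23615343 among the 12, the lowest being siNtc BSA replicate 1. All 10 myotube markers were measured, with a summed level of 9277 to 10690 CPM in the 12 libraries (counts scaled to the TMM-normalized library size). None of 6 adipocyte markers reached the count minimum. The summed levels were 0.98 to 2.13 CPM for 3 of 6 macrophage and leukocyte markers, 0.417 to 1.44 CPM for 5 of 6 endothelial markers, 1.39 to 2.48 CPM for 2 of 6 neuron and Schwann cell markers and 33.5 to 69.0 CPM for 6 fibroblast markers. The share of counts on an 18S ribosomal RNA gene was 8.39% to 12.87% in siMk5 BSA against 2.56% to 7.17% in siNtc BSA, and 1.71% to 6.69% in siMk5 PA against 5.32% to 6.43% in siNtc PA. Its part in the results in BSA was not tested beyond a fit with this share as a covariate, which gave 94 calls in place of 96 and 32 alike genes, 22 of them among the 31 described here. The third siMk5 BSA library stood apart in muscle structure genes. Its Xirp2 level was 18.2 CPM against 40.2 and 43.2 CPM in the other two, so results that rest on it are given with and without it.

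The targeted transcript was low in every library. Mapkapk5 (chromosome 5, 121663101 to 121683968, GRCm39) measured 2.53, 2.54 and 2.32 CPM in siNtc BSA and 1.18, 2.01 and 1.70 CPM in siMk5 BSA. In PA it measured 2.52, 3.92 and 3.28 CPM with siNtc and 2.43, 2.33 and 2.17 CPM with siMk5. The siMk5 and siNtc libraries did not overlap in either medium, although siMk5 PA replicate 1 was close to siNtc PA replicate 1. The mean difference within media was -0.55 log2 CPM over 6 against 6 libraries (two-sided exact permutation test within media, p = 0.005, the smallest that its 400 arrangements can give). In the edgeR quasi-likelihood fit over all genes, the log2 fold change was -0.54 with a standard error of 0.14 and FDR = 0.0714, so Mapkapk5 itself did not pass. Mapk6, the transcript of its partner Erk3, differed by 0.01 log2 CPM (exact permutation test, p = 0.825). Its mean levels were 132.3 ± 3.18 and 135.9 ± 1.27 CPM in BSA (siNtc and siMk5, SD, n = 3 each) and 231.8 ± 14.7 and 227.6 ± 11.7 CPM in PA. These are RNA levels and do not measure protein. By immunoblot the paper reports efficient silencing of Mk5 and lower Erk3 protein after Mk5 silencing in C2C12 cells.

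A fit of the 12 libraries with medium as blocking factor asked which genes differed between siMk5 and siNtc across both media. A gene was called at FDR below 0.05 with a fold change above 1.3 (0.379 on the log2 scale). Of 21772 genes tested, 17 were called higher (0.0781%) and 79 lower (0.363%), 96 in all (0.441%). The median log2 fold change of all genes was 0.01. The number of calls was 47 with DESeq2, 53 and 46 with the mean of the BSA and PA effects in 12 and 18 libraries, and 61 without siMk5 PA replicate 2. A called gene was counted as alike when its own fold changes in BSA and in PA had the same sign and each exceeded 1.3. This held for 31 genes (0.142%), 10 higher and 21 lower. With the mean of the BSA and PA effects as the call, it held for 12 higher and 10 lower genes in 12 libraries and for 12 higher and 9 lower genes in 18 libraries. The other 65 called genes, 7 higher and 58 lower, exceeded the fold in PA only (56 genes), in BSA only (6 genes) or in both with opposite signs (3 genes), and 33 of the 65 were on a list of 51 interferon-stimulated genes.

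Within each medium alone, 24 genes passed in BSA (0.11%) and 126 in PA (0.579%). The BSA count was 7 without siMk5 BSA replicate 3, 12, 13 and 15 without siNtc BSA replicates 1, 2 and 3, 14 without siMk5 BSA replicate 2 and 41 without siMk5 BSA replicate 1. The comparisons in BSA and in PA share no library. Of the 24 genes called in BSA, 18 had the same sign in PA, 10 of them with an unadjusted p under 0.05, and 2 had the opposite sign with a p under 0.05. Of the 126 called in PA, 70 had the same sign in BSA and 13 of those had a p under 0.05 there. Over all genes, 102 had an unadjusted p under 0.05 in each medium with the same sign (0.468%), 59 higher and 43 lower, and 73 with opposite signs (0.335%). Across 12736 genes with a mean of at least 1 CPM, the log2 fold changes of both media correlated at r = 0.139. Across the 9320 genes with at least 10 CPM r was 0.005, and genes are not independent replicates. The scatter of both fold changes shows how few genes lay away from both axes with the same sign.

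**Figure D1:**
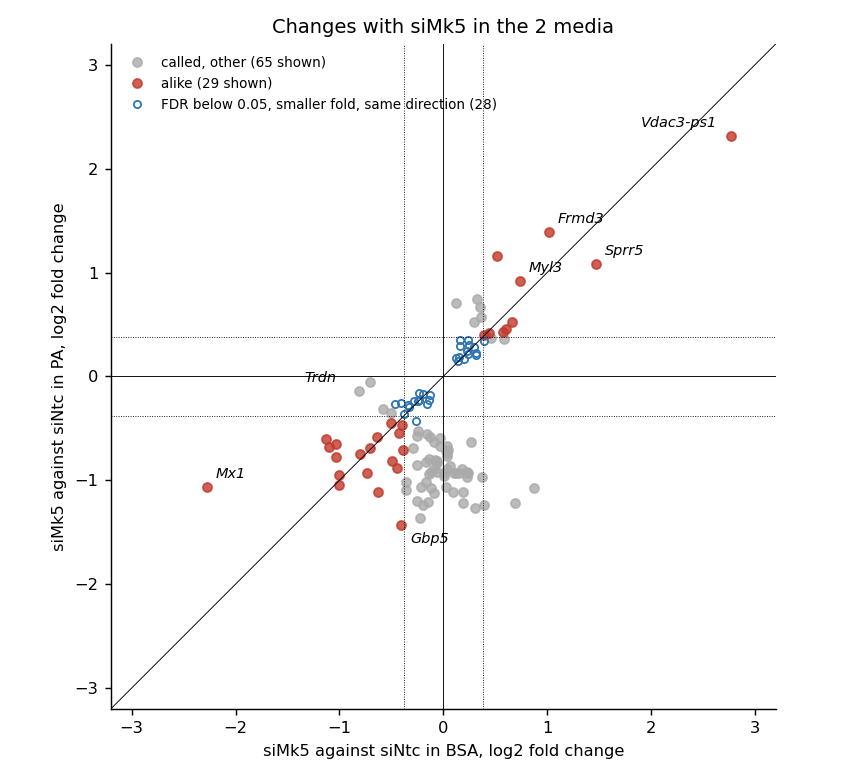
Log2 fold change of siMk5 against siNtc in BSA (x axis) and in PA (y axis). Red points are alike genes, gray points other called genes and open blue points the 28 genes with a smaller fold that pass the FDR in the common fit and differ in the same direction in both media. Dotted lines mark the 1.3-fold limit and the diagonal marks equal change. Of the 96 called genes 94 are shown, and 2 alike genes lie beyond the axes. Most gray points lie low on the y axis and near 0 on the x axis.

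The 31 alike genes fell into 2 sets. In 20 of them the unadjusted p was under 0.05 in each medium, 10 higher and 10 lower, and 1 of the 20 was on the interferon list. In the other 11, all lower, it was under 0.05 in PA only, and 4 of these were on the interferon list. With the mean of the BSA and PA effects in 12 libraries, 19 of the 20 genes of the first set were called and 1 of the 11 of the second set. The split was made after the values had been seen. The siMk5 and siNtc libraries did not overlap in either medium for 15 of the 31, 14 of them in the first set. Over all genes tested 178 separated the groups in the same direction in both media (0.818%). The 31 were selected on these same libraries, so their separation is a description and no independent support. The interaction of siMk5 with medium passed for 55 genes (0.253%), and for none of the 31 (smallest unadjusted p = 0.104, smallest FDR = 0.717), which does not show that their changes were equal. Without siMk5 BSA replicate 1 the interaction passed for 88 genes.

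**Figure D2:**
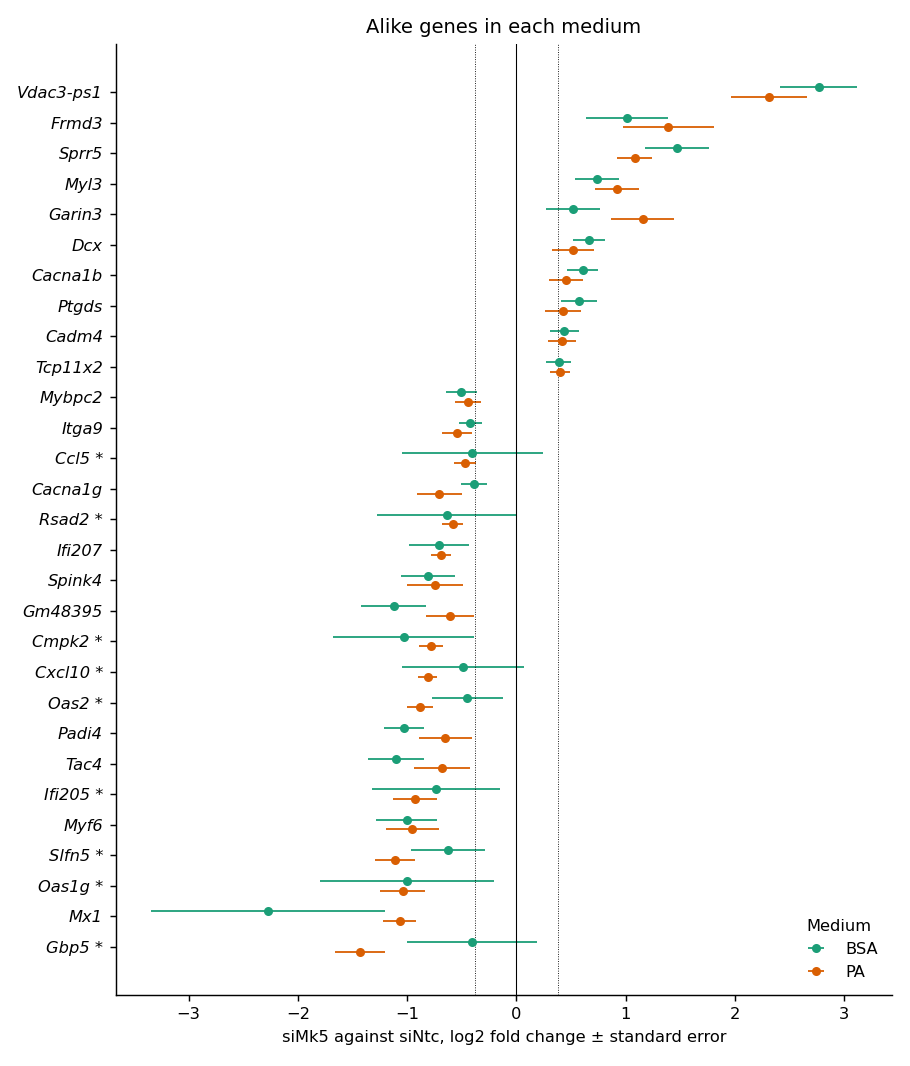
Log2 fold change with its standard error, from edgeR, of 29 alike genes in BSA (green) and PA (orange), ordered by the common fold change. An asterisk marks genes with an unadjusted p under 0.05 in PA only. Trim30c and Gm55118, each carried by 1 library, are left out. Dotted lines mark the 1.3-fold limit. The bars of the starred genes are wide in BSA.

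Among the genes that rose, the largest difference was in Vdac3-ps1 (chromosome 13, 18205326 to 18206178, minus strand), a transcribed pseudogene of Vdac3. Vdac3 encodes a channel of the mitochondrial outer membrane. Vdac3-ps1 measured 0.492, 0.917 and 0.473 CPM in siNtc BSA and 4.80, 4.83 and 3.82 CPM in siMk5 BSA. With PA it measured 0.585, 1.05 and 0.606 CPM with siNtc and 5.08, 4.80 and 1.19 CPM with siMk5. The third siMk5 PA library, with 23 reads, was therefore close to the siNtc range, and the other 5 siMk5 libraries were far above it. The log2 fold change was 2.53 in the common fit (standard error 0.25, edgeR FDR = 3.26e-07), 2.77 in BSA and 2.31 in PA. Without siMk5 PA replicate 3 the PA value was 2.71. The parent gene Vdac3, on chromosome 8 and chosen after its values were seen, stayed between 101.4 and 107.5 CPM in the 6 BSA libraries and between 137.1 and 143.2 CPM in the 6 PA libraries (common log2 fold change -0.02, FDR = 0.99). A near-identical copy can trade reads with its parent, so the level of the pseudogene is uncertain. In the 6 siErk3 libraries Vdac3-ps1 stayed between 0.506 and 1.01 CPM.

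Sprr5 (chromosome 3, 92439812 to 92441818), a gene of the small proline-rich family, was with Vdac3-ps1 the only one called in each medium alone. It measured 0.141, 0.708 and 0.662 CPM in siNtc BSA and 1.53, 1.71 and 1.39 CPM in siMk5 BSA. In PA, where its level was higher, it measured 2.61, 3.24 and 3.49 CPM with siNtc and 7.06, 6.1 and 6.55 CPM with siMk5. The siMk5 libraries lay above the siNtc libraries in both media, by a log2 fold change of 1.47 in BSA and 1.08 in PA (common 1.17, standard error 0.14, edgeR FDR = 8.36e-06). Without siNtc BSA replicate 1, in which it had 2 reads, the BSA value was 1.16 (FDR = 0.129). With siErk3 it also lay above siNtc, at 1.00 to 1.48 CPM in BSA and 3.67 to 6.74 CPM in PA, and siMk5 and siErk3 did not pass against each other (log2 0.36, edgeR FDR = 0.215).

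Myl3 (chromosome 9, 110570929 to 110598866), the essential light chain of slow skeletal and ventricular myosin, rose in both media from a low level. It measured 1.41, 1.46 and 1.80 CPM in siNtc BSA and 2.14, 2.92 and 2.84 CPM in siMk5 BSA. It measured 1.22, 1.55 and 1.52 CPM in siNtc PA and 2.56, 2.47 and 3.10 CPM in siMk5 PA. The fold changes were 1.67 in BSA and 1.89 in PA (common log2 0.83, standard error 0.14, edgeR FDR = 0.00101). Here siErk3 ran from 1.22 to 1.82 CPM in BSA and from 1.52 to 2.28 CPM in PA, below siMk5 (log2 0.63, edgeR FDR = 0.0108).

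The other 7 genes that rose alike with a p under 0.05 in each medium included Cacna1b and Dcx. Cacna1b, the pore subunit of N-type calcium channels, measured 3.23, 3.21 and 4.78 CPM in siNtc BSA against 5.97, 5.03 and 6.19 CPM in siMk5 BSA. The PA values were 3.15, 2.83 and 3.23 against 4.495, 4.1 and 4.03 CPM, so the groups were apart in both media (common log2 0.54, edgeR FDR = 0.00738). Dcx, which encodes the microtubule protein doublecortin, rose 1.59-fold in BSA and 1.44-fold in PA (common log2 0.61, edgeR FDR = 0.00427). Its level with siErk3 was far higher, 11.9 to 14.8 CPM in BSA against 6.19 to 7.07 CPM with siMk5, and it was the only alike gene whose call against siErk3 was opposite in direction to its call against siNtc (log2 -1.08, edgeR FDR = 9.48e-09). Cadm4, a cell adhesion molecule, rose by 0.43 on the log2 scale, Tcp11x2 by 0.40, Ptgds, the prostaglandin D2 synthase, by 0.50, Frmd3, a FERM domain protein, by 1.18 and Garin3, a Golgi-associated Rab2 interactor, by 0.79 (FDR 0.0446, the highest of the 31). Garin3 is named although it falls outside the first 30. Frmd3 stood at 0.202 to 0.542 CPM in the 6 siNtc libraries and at 0.494 to 1.45 CPM in the 6 siMk5 libraries, and without siMk5 PA replicate 3 its PA log2 value was 0.80 in edgeR (FDR = 0.855), against 1.39 with it.

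**Figure D3:**
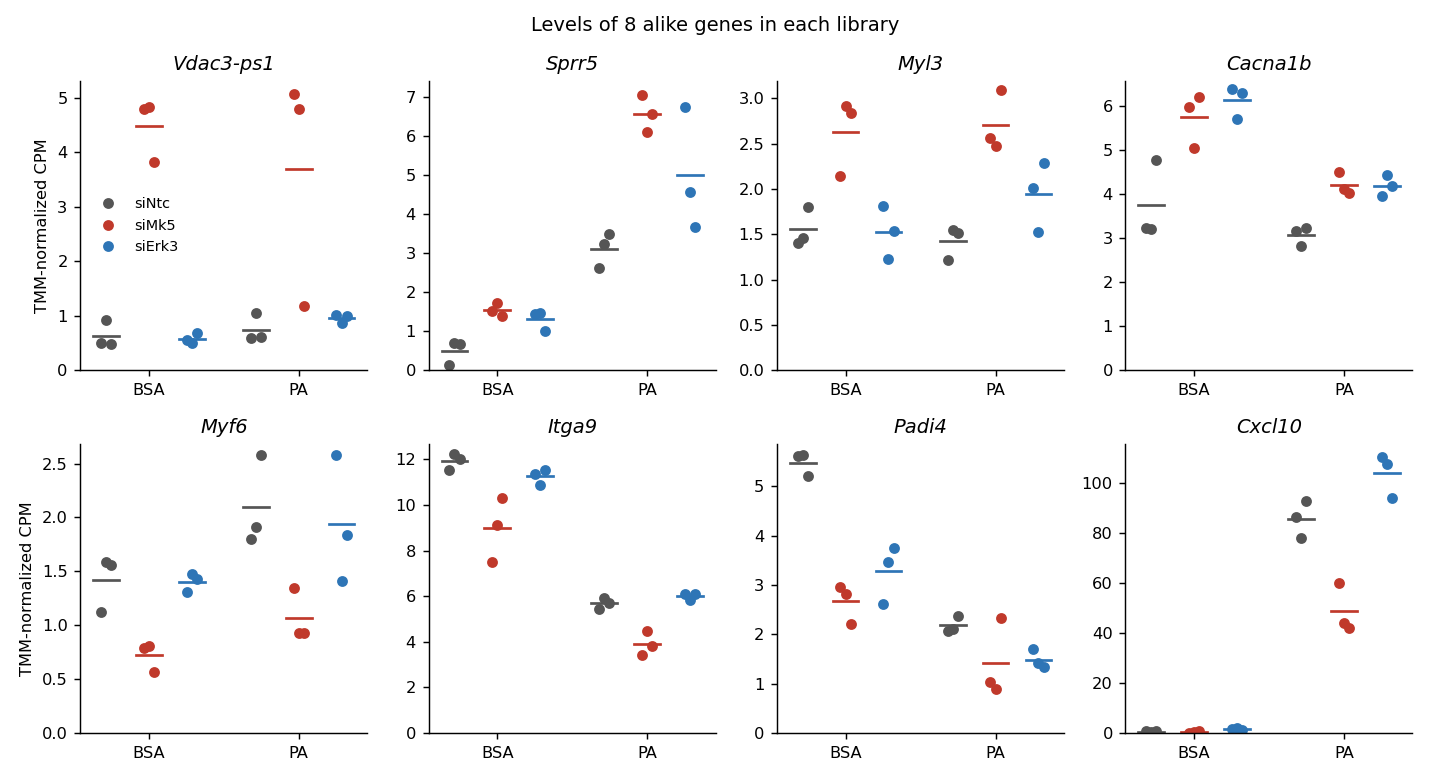
Level in TMM-normalized CPM (y axis, starting at 0) of 8 alike genes in each of the 18 libraries, grouped by medium (x axis) and siRNA. Points are libraries and bars are means of 3. With siErk3, Cacna1b and Padi4 lie near their siMk5 levels and Vdac3-ps1, Itga9 and Myf6 near their siNtc levels. Cxcl10 is near 0 in BSA in every library.

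Among the genes that fell, Myf6 (chromosome 10, 107328714 to 107330598), the myogenic factor also called MRF4, fell to a like extent in both media. It measured 1.12, 1.58 and 1.56 CPM in siNtc BSA and 0.785, 0.805 and 0.568 CPM in siMk5 BSA. It measured 1.80, 1.92 and 2.58 CPM in siNtc PA and 1.35, 0.932 and 0.929 CPM in siMk5 PA. The siMk5 libraries lay below the siNtc libraries in both media, 50.1% lower in BSA and 48.3% lower in PA (common log2 -0.97, standard error 0.18, edgeR FDR = 0.00304). The level with siErk3, 1.31 to 1.48 CPM in BSA and 1.41 to 2.58 CPM in PA, was above that with siMk5 (log2 -0.89 for siMk5 against siErk3, FDR = 0.00474). Of the 23 genes of the list on myogenic differentiation and fusion, Myf6 was the only one called in the common fit.

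Itga9, the alpha subunit of an integrin that binds tenascin, measured 11.5, 12.3 and 12.01 CPM in siNtc BSA and 7.5, 9.11 and 10.3 CPM in siMk5 BSA. In PA it measured 5.44, 5.93 and 5.71 CPM with siNtc and 3.42, 4.47 and 3.82 CPM with siMk5, with no overlap in either medium (common log2 -0.47, edgeR FDR = 0.00198). It was also called lower against siErk3 (log2 -0.45, FDR = 0.0021). Padi4, a peptidylarginine deiminase that converts arginine to citrulline in histones, fell from 5.48 ± 0.24 to 2.67 ± 0.40 CPM in BSA (SD, n = 3 each). In PA it stood at 2.07, 2.10 and 2.38 CPM with siNtc and at 1.03, 0.885 and 2.32 CPM with siMk5, the third library lying within the siNtc range (common log2 -0.89, edgeR FDR = 0.00106). Without that library the PA log2 value was -1.17, against -0.65 with it.

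Mybpc2, the fast isoform of myosin-binding protein C, measured 23.7, 23.9 and 23.6 CPM in siNtc PA and 17.3, 16.5 and 18.6 CPM in siMk5 PA. In BSA it measured 12.2, 14.04 and 15.98 CPM with siNtc and 11.9, 12.3 and 5.73 CPM with siMk5. The common log2 fold change was -0.47 (edgeR FDR = 0.00821). Without siMk5 BSA replicate 3 it was -0.37, which is under the fold limit, and the BSA value was -0.24 against -0.50 with it. Cacna1g, the pore subunit of a T-type calcium channel, fell by 0.47 on the log2 scale (FDR = 0.0277), from 11.5 ± 1.08 to 8.90 ± 0.70 CPM in BSA and from 2.80 ± 0.77 to 1.75 ± 0.51 CPM in PA (SD, n = 3 each). Tac4, a tachykinin precursor, fell by 0.89, Spink4, a Kazal-type protease inhibitor, by 0.78 and Gm48395, a gene model with no name, by 0.79. These last 3 stood between 0.361 and 2.27 CPM in siMk5 libraries. The remaining 2 of the 10 lower genes, Ifi207 and Mx1, are interferon-inducible and are given with that group.

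Leaving out 1 library at a time, 16 of the 31 kept their call in all 12 fits, 10 of them in the first set. These 10 were Vdac3-ps1, Sprr5, Myl3, Dcx, Cacna1b, Myf6, Itga9, Padi4, Ifi207 and Mx1. These counts follow only the call in the common fit. By the full rule for alike genes, with the fold limit in each medium, each of the 12 fits kept 22 to 27 of the 31. Tac4 lost its call without siNtc BSA replicate 2 (log2 -0.79, FDR = 0.0625). Tcp11x2 lost it on the fold limit without siMk5 BSA replicates 1 or 2 or siMk5 PA replicate 1 (log2 0.36 to 0.38). Cadm4 lost it without siNtc BSA replicate 1, siMk5 BSA replicate 2 or siMk5 PA replicate 2 (log2 0.37 to 0.41). Gm48395 lost it without siNtc BSA replicates 2 or 3, siNtc PA replicate 2 or siMk5 PA replicate 2 (log2 -0.81 to -0.67). Spink4 lost it without siNtc BSA replicate 2, siMk5 BSA replicate 2, siNtc PA replicate 1 or siMk5 PA replicates 1 or 3 (log2 -0.77 to -0.69). Cacna1g lost it in 6 fits, those without siNtc BSA replicates 2 or 3, siMk5 BSA replicate 1, siNtc PA replicates 1 or 2 or siMk5 PA replicate 2 (FDR 0.0544 to 0.137). Ptgds lost it in 7 and Frmd3 in 8 fits (FDR 0.0523 to 0.0892 and 0.0529 to 0.144). Ptgds kept it without siNtc BSA replicate 3, siMk5 BSA replicates 1 or 2, siNtc PA replicate 1 or siMk5 PA replicate 1, and Frmd3 without siMk5 BSA replicates 2 or 3 or siMk5 PA replicates 1 or 2. Garin3 kept its call only without siNtc BSA replicate 3 or siMk5 BSA replicate 2, and in the other 10 fits its log2 value was 0.71 to 0.82 (FDR 0.0501 to 0.144). In the first set, Mybpc2, Ptgds, Frmd3 and Garin3 lost their call with DESeq2, and Gm48395, Cacna1g, Frmd3 and Garin3 with filterByExpr. Frmd3 also lost it with the 18S share as a covariate and Garin3 with TMM factors from the 12 libraries. With the mean of the BSA and PA effects, Mx1 lost its call in 12 and in 18 libraries and Ifi207 in 18 libraries.

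The siErk3 libraries were set beside the alike genes to show where siMk5 differed from silencing of its partner. That comparison shares the siMk5 libraries with the common fit and called 250 of the 21772 genes (1.15%). Of the 10 higher genes of the first set, 3 were also called higher against siErk3, Vdac3-ps1, Myl3 and Ptgds, 1 was called lower and 6 were not called. Of the 10 lower genes, 4 were called lower against siErk3, Ifi207, Mx1, Itga9 and Myf6, and 6 were not called. The siErk3 mean lay on the siMk5 side of the siNtc mean in both media for 7 of the 10 higher genes and for 7 of the 10 lower genes. These genes were selected for a difference from the same siNtc libraries, which by itself favors that side. The share over all genes is not given, so these counts are a description and no independent support. For Tcp11x2 the levels were 5.13 to 5.88 CPM with siNtc, 6.19 to 7.76 CPM with siMk5 and 6.96 to 8.28 CPM with siErk3 in BSA. For Spink4 they were 1.75 to 2.04, 0.805 to 1.35 and 0.506 to 0.966 CPM, in the same order. For genes of this kind, an effect shared by both kinases and a difference of the siNtc pool from both other pools cannot be told apart. Nor can either be told from the spread of the siNtc libraries on which the genes were selected. In the second set all 11 genes were called lower against siErk3. For 9 of these 11 the siErk3 mean lay above the siNtc mean in both media, on the side away from siMk5.

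Muscle genes that differed in the same direction in both media were found also below the fold limit. With the FDR alone, 147 genes passed in the common fit (0.675%), 34 higher and 113 lower. Of these, 55 had an unadjusted p under 0.05 and the same sign in each medium (0.253%), 29 higher and 26 lower. They included 20 alike genes, 7 called genes that stayed within the fold limit in 1 medium and 28 genes that were under it in the common fit. The criterion was added after the values had been seen. Of 126 genes on the muscle lists (sarcomere, oxidative fiber, glycolytic fiber, myogenic differentiation and calcium release), 12 met it. The 3 that were higher were Myh7, Myh6 and Myl3. The 9 that were lower were Myh1, Myh2, Myh4, Mybpc1, Mybpc2, Mylk2, Hspb7, Myot and Myf6. Part of the myosin counts is uncertain, since the skeletal myosin heavy chain genes are closely similar copies.

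Myh7 (chromosome 14, 55208141 to 55232083), the slow and beta-cardiac myosin heavy chain, had one of the smallest p-values of the common fit with a difference of 0.37 on the log2 scale (standard error 0.03, edgeR FDR = 3.18e-08). It measured 143.4, 138.6 and 146.1 CPM in siNtc BSA and 192.1, 182.4 and 185.4 CPM in siMk5 BSA. In PA it measured 106.4, 108.9 and 110.0 CPM with siNtc and 134.7, 137.2 and 140.9 CPM with siMk5. The groups were apart in both media, 1.31-fold in BSA (FDR = 2.05e-05) and 1.27-fold in PA (FDR = 7.5e-06). Its neighbor Myh6, the alpha-cardiac heavy chain, stood at 11.9, 11.1 and 14.5 CPM in siNtc BSA and at 18.5, 18.7 and 19.04 CPM in siMk5 BSA. In PA the siMk5 libraries, at 15.6, 13.6 and 12.1 CPM, touched the siNtc range of 9.58 to 12.1 CPM (common log2 0.48, edgeR FDR = 0.000329). Both genes were as high with siErk3, Myh7 at 186.4 to 227.0 CPM in BSA and 136.5 to 149.0 CPM in PA.

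The fast isoforms lay on the other side. Myh4, the IIb heavy chain, measured 424.6, 379.6 and 359.8 CPM in siNtc BSA and 342.1, 308.0 and 321.0 CPM in siMk5 BSA. In PA its level was 233.1 ± 16.6 CPM with siNtc and 173.3 ± 10.7 CPM with siMk5 (SD, n = 3 each), again with no overlap (common log2 -0.34, edgeR FDR = 2.77e-05). Myh1, the IIx heavy chain, was lower in both media with a common log2 value of -0.26 (FDR = 0.001). Myh2, the IIa heavy chain and chosen after its values were seen, was lower in both media with -0.31 (FDR = 0.0148). Without siMk5 BSA replicate 3 the common value of Myh2 was -0.23, and its BSA value was -0.17 against -0.34 with that library. The embryonic heavy chain Myh3 and the perinatal Myh8 did not pass, at 0.14 (FDR = 0.0536) and -0.12 (FDR = 0.207). Mybpc1, the slow isoform of myosin-binding protein C, was lower with siMk5 (-0.34, FDR = 2.63e-05). With siErk3 it lay above siNtc, at 123.9 to 136.1 CPM in BSA against 86.3 to 104.2 CPM.

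Per kilobase of gene model, Myh3 made up most of the summed level of 7 sarcomeric heavy chains (Myh1, Myh2, Myh3, Myh4, Myh6, Myh7 and Myh8). Its share was 58.2% to 59.5% in siNtc BSA, 63.6% to 64.5% in siMk5 BSA, 62.9% to 64.2% in siNtc PA and 68.9% to 69.7% in siMk5 PA. The share of Myh7 was 2.37%, 2.43% and 2.47% in siNtc BSA and 3.12%, 3.06% and 3.38% in siMk5 BSA, and 2.29%, 2.27% and 2.30% against 2.80%, 2.90% and 2.80% in PA. The share of Myh1 was 23.8% to 24.4% in siNtc BSA, 18.2% to 20.96% in siMk5 BSA, 22.2% to 22.7% in siNtc PA and 18.2% to 18.98% in siMk5 PA. The groups did not overlap in these shares in either medium. With siErk3 the Myh7 share was 2.83% to 2.95% in BSA and 2.53% to 2.55% in PA, between siNtc and siMk5. The Myh3 share with siErk3 was 64.74% to 65.38% in BSA and 69.79% to 70.35% in PA, above siMk5 in both media. The Myh1 share with siErk3 lay within the siMk5 range in BSA. In PA it was 15.94% to 16.67%, below siMk5. Shares of 1 sum are not independent of each other, and no test was made on them.

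Leaving out 1 library at a time, Myh7 stayed between 0.35 and 0.37, Myh4 between -0.38 and -0.31 and Myh1 between -0.28 and -0.21, each with FDR under 0.05 in all 12 fits. Hspb7, a small heat shock protein of striated muscle, fell by 0.43 (edgeR FDR = 0.000252) and Myot, the Z-disc protein myotilin, by 0.47 (FDR = 0.00474). Without siMk5 BSA replicate 3 they were at -0.34 and -0.37, under the fold limit, with FDR = 4.49e-06 and 0.0067. Mylk2, the skeletal myosin light chain kinase, was at -0.24 (FDR = 0.0453) and at -0.19 (FDR = 0.105) without that library. Xirp2, a Z-disc and intercalated disc protein called in the common fit at -0.43 (FDR = 0.0365), had a BSA value of -0.25 that became 0.04 without it, and it kept its call in 4 of the 12 fits, those without siNtc BSA replicate 2, siMk5 BSA replicates 1 or 2 or siNtc PA replicate 1, and lost it with DESeq2 and with filterByExpr.

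**Figure D4:**
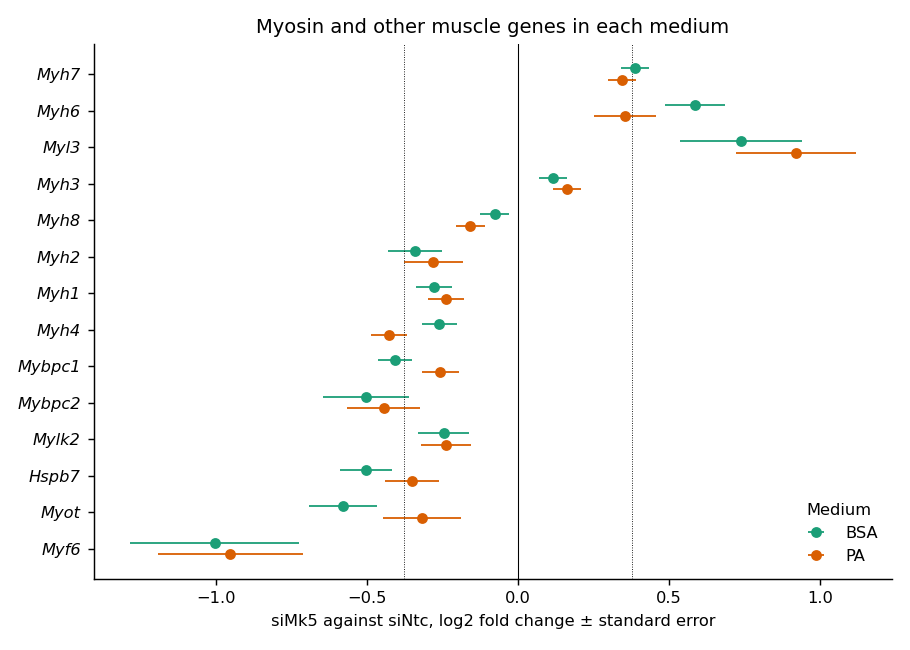
Log2 fold change of siMk5 against siNtc with its standard error, from edgeR, for 14 muscle genes in BSA (green) and PA (orange). Dotted lines mark the 1.3-fold limit. Myh7, Myh6 and Myl3 lie to the right of 0 in both media, and the fast heavy chains Myh1, Myh2 and Myh4 to the left.

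Of the 41 genes of the sarcomere list, 36 were lower with siMk5 in BSA and 22 in PA, and 4 were called lower in the common fit (median log2 -0.08). Without siMk5 BSA replicate 3, 29 were lower in BSA. Of 23 glycolytic fiber genes, 22 were lower in BSA (median -0.18) and 11 in PA (median 0.02), with 20 lower in BSA without that library. Mybpc2 was the only one called. The 20 oxidative fiber genes had 2 called higher, Myl3 and Myh6, and a median of -0.02. Of these 20, 13 were lower in BSA (median -0.05) and 7 in PA (median 0.02). Without siMk5 BSA replicate 3, 10 were lower in BSA. Of the 26 genes of calcium release and excitation-contraction coupling, Trdn, which anchors calsequestrin at the release channel, was called lower (common log2 -0.46, FDR = 0.0135), with values of -0.82 in BSA and -0.14 in PA. It lost the call without siMk5 BSA replicates 2 or 3 (log2 -0.36 without the third), with DESeq2 and with the filterByExpr filter.

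Other lists held no called gene. These were 31 respiratory chain genes (median log2 0.00), 32 of fatty acid use and storage (0.02), 23 of sterol and fatty acid synthesis (0.04), 24 of the ATF4 and endoplasmic reticulum stress response (-0.01), 23 immediate early genes (-0.01), 32 of the extracellular matrix (-0.05), 28 of the cell cycle (0.00), 32 of phosphoinositide metabolism (0.02) and 21 Mk5 partners and relatives (0.03). Of the 246 genes on these 9 lists, 25 had an unadjusted p under 0.05 in the edgeR fit and none was called by DESeq2. The share of all genes tested at that p is not given, so the 25 show neither an excess nor a lack. The common fit called 0.441% of all genes, so a list of this size with no call is near that background. Among the Mk5 relatives with the smallest p, Mapkapk3 was at 0.61 and Mapk4, the gene of Erk4, at -0.42 (FDR = 0.409 for both).

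**Figure D5:**
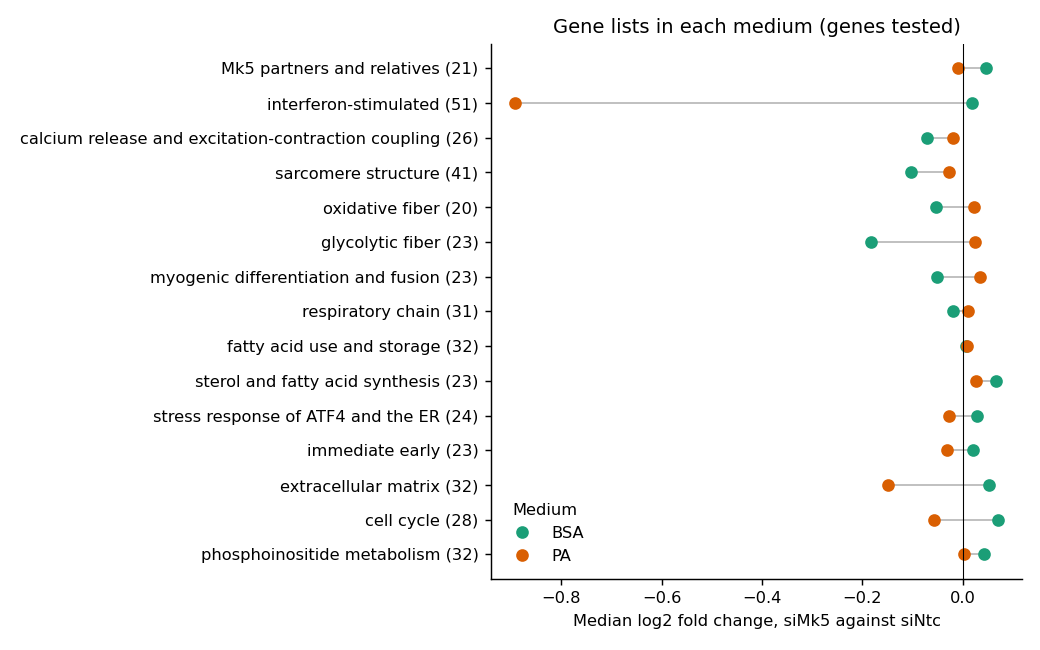
Median log2 fold change of siMk5 against siNtc over the tested genes of each list (number in parentheses) in BSA (green) and PA (orange). The interferon-stimulated list is at 0.02 in BSA and at -0.89 in PA, and the other medians lie between -0.18 and 0.07.

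The interferon-stimulated genes made up the largest block of calls, but the 2 media contributed to it very unequally. Of the 51 genes on the list, 38 were called lower in the common fit and none higher. In PA all 51 were lower and 49 were called (median log2 -0.89). In BSA 23 were lower and 28 higher, with none called by edgeR or DESeq2 and 1 at an unadjusted p under 0.05 (median 0.02). The summed level was 472.5 to 507.8 CPM in siNtc BSA, 485.8 to 525.0 CPM in siMk5 BSA, 3226 to 3686 CPM in siNtc PA and 1807 to 2334 CPM in siMk5 PA. Ifit3, an antiviral protein that binds Ifit1, had with its neighbor Ifit3b the smallest p in the common fit. It measured 218.1, 163.4 and 209.8 CPM in siNtc PA and 98.3, 69.9 and 81.9 CPM in siMk5 PA, but 1.83, 2.29 and 1.66 CPM against 1.66, 1.41 and 2.06 CPM in BSA. Iigp1, Usp18 and Ifit1 had the same form, with PA log2 values of -1.20, -1.06 and -0.69 and BSA values of -0.25, 0.03 and -0.29. A call in the common fit therefore did not show a change in both media for these genes. With the mean of the BSA and PA effects in place of the single coefficient, 53 genes were called (0.243%), 19 higher and 34 lower, and 11 interferon genes were called in place of 38.

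Of the 5 interferon-list genes that met the rule for alike genes, Cmpk2, Mx1, Rsad2 and Oas1g had 9 reads or fewer in each of the 6 siNtc and siMk5 BSA libraries. Oas2, an oligoadenylate synthetase, had 25, 69 and 29 reads in siNtc BSA and 32, 25 and 37 in siMk5 BSA, with overlap (log2 -0.45 in BSA and -0.88 in PA). Mx1, an antiviral GTPase, had 2, 3 and 1 reads in siNtc BSA and 0, 1 and 0 in siMk5 BSA, so its place among genes with a p under 0.05 in BSA rests on single reads. Cmpk2, a mitochondrial nucleotide kinase, had 1, 9 and 6 reads against 2, 3 and 3, and Rsad2, which encodes viperin, 4, 9 and 5 against 6, 5 and 1. In PA their levels were 18.9 ± 2.46 against 10.96 ± 1.64 CPM for Cmpk2 and 32.6 ± 4.28 against 21.7 ± 3.92 CPM for Rsad2 (siNtc and siMk5, SD, n = 3 each). Alike genes outside the list that are known to be interferon-inducible included Cxcl10, Ifi207, Ifi205, Slfn5, Gbp5 and Ccl5. The chemokine Cxcl10 had 10, 7 and 14 reads in siNtc BSA and 3, 7 and 13 in siMk5 BSA, and 85.6 ± 7.58 against 48.6 ± 9.76 CPM in PA. Ccl5, also a chemokine, was called at -0.47 and lost the call without siNtc PA replicates 2 or 3 or siMk5 PA replicates 2 or 3 (FDR 0.0932 to 0.22). Oas1g lost it without siMk5 PA replicate 2 (log2 -0.87, FDR = 0.0684), and Ifi205 without siNtc PA replicate 1 or siMk5 PA replicate 3 (FDR 0.0734 and 0.0733).

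Ifi207, an Ifi200-family gene, and Slfn5, a schlafen-family gene, had at least 12 reads in each of these 6 libraries. Ifi207 had 26, 44 and 27 reads in siNtc BSA and 14, 18 and 30 in siMk5 BSA, or 1.83, 1.83 and 1.28 CPM against 0.611, 0.906 and 1.55 CPM. Its log2 fold change was -0.71 in BSA (unadjusted p = 0.015) and -0.69 in PA (edgeR FDR = 6.7e-06), and the third siMk5 BSA library lay within the siNtc range. Slfn5 measured 1.05, 1.00 and 1.23 CPM in siNtc BSA and 0.829, 0.604 and 0.671 CPM in siMk5 BSA, and the groups were apart in both media (-0.63 in BSA, unadjusted p = 0.076, and -1.11 in PA, edgeR FDR = 0.000259). With siErk3 Slfn5 was above siNtc, at 2.08 to 2.704 CPM in BSA and 12.7 to 14.8 CPM in PA. Ifi207 with siErk3 overlapped siNtc in BSA, at 1.81 to 3.72 CPM, and was above it in PA, at 43.3 to 49.3 CPM.

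The promoters shown are those of the first 4 alike genes, by adjusted p in the common fit, with an entry in the RefSeq promoter table. Of these, Cxcl10, Cmpk2 and Rsad2 are of the second set, with an unadjusted p under 0.05 in PA only. Each runs from 250 bases before to 50 bases after the start, 5′ to 3′ on the gene's strand, with RefSeq sequences (GRCm38.p6) placed by exact match on GRCm39. They lie at chr5:92496699-92496998 (minus), chr1:173569326-173569625 (minus), chr12:26518964-26519263 (plus) and chr12:26506402-26506701 (minus). Capitals mark, on either strand, the core of the interferon-stimulated response element searched here, which is GAAA, any 2 bases and GAAA again.
Cxcl10: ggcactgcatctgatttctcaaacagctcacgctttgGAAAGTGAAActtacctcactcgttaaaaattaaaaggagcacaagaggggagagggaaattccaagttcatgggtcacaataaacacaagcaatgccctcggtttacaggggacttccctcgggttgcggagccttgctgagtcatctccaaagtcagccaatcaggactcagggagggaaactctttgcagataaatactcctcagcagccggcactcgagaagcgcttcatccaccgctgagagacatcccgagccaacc
Ifi207: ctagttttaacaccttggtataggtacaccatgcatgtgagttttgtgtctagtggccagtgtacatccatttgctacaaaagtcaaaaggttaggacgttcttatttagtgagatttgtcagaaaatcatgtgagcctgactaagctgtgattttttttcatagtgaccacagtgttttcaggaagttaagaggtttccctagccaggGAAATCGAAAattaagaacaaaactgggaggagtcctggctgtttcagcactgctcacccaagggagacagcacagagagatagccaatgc
Cmpk2: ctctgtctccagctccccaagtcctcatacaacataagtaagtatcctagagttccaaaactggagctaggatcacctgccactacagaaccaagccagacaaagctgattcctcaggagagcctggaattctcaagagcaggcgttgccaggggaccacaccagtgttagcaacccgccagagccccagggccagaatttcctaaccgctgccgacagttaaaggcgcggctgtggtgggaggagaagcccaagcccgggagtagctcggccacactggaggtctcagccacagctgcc
Rsad2: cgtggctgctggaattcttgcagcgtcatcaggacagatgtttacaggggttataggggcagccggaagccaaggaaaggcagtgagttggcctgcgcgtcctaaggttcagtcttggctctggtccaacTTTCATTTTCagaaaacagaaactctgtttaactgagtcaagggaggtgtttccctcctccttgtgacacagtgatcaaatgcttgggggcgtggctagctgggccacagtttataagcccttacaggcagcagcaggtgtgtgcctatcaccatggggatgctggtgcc
The core lay 213 bases before the start in Cxcl10, 41 in Ifi207 and 120 in Rsad2, and these letters were not in the Cmpk2 window. The core was present in 3.44% of all 32851 promoters and, counted per gene, in 3.78% of the 12756 tested genes with an entry. Among alike genes with an entry it was present in 7 of 20, in 6 of the 8 of the second set and in 1 of the 12 of the first set, Ifi207. On the interferon list 20 of 39 held it. The E-box CAGCTG reads the same on both strands and is a site of myogenic factors. It was present in 16.3% of all promoters and, counted per gene, in 19.1% of the tested genes with an entry. Of the 20 alike genes 5 held it, Cmpk2, Slfn5, Itga9, Cacna1b and Ptgds. A match of letters is no evidence of binding. Vdac3-ps1, Sprr5, Mx1 and Myf6 are named here without a promoter.

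Among the alike genes, 2 rest on 1 library each. Trim30c had 307 reads in siNtc PA replicate 1 and 0 to 5 reads in each of the other 11 libraries, and without that library its log2 value was -1.69 (FDR = 0.684). Gm55118, annotated as a microRNA gene, had 425 reads in siNtc PA replicate 2 and 0 to 5 in the other 11 (18.4 CPM in siErk3 PA replicate 1), and without it the value was -0.55 (FDR = 0.998). Trim30c also lost its call without siMk5 PA replicates 2 or 3, and Gm55118 without siMk5 PA replicates 1, 2 or 3.

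Just outside the rule stood 7 called genes with an unadjusted p under 0.05 and the same sign in each medium that stayed within the fold limit in 1 of them. Hspb7, Myot and Myh6 were 3 of them. The other 4 were chosen after their values were seen. Igha, which encodes an immunoglobulin alpha constant region, measured 4.004, 3.96 and 4.16 CPM in siNtc BSA and 4.84, 5.59 and 5.11 CPM in siMk5 BSA. The PA values were 5.40, 5.47 and 5.86 against 8.18, 9.04 and 9.44 CPM, apart in both media (common log2 0.54, edgeR FDR = 0.000401). Rnf128, a membrane-bound ubiquitin ligase, was higher by 0.42 (FDR = 0.00294), Mal, a membrane raft proteolipid, by 0.40 (FDR = 0.00474) and Stum by 0.45 (FDR = 0.0106). Rnf128 lost its call without siMk5 BSA replicate 1 (lowest log2 0.37), Mal without siNtc BSA replicate 2 or siMk5 BSA replicate 1 (lowest 0.33) and Stum without siMk5 BSA replicate 3 (0.35). With siErk3 all 4 lay on the same side of siNtc as with siMk5, Igha at 5.19 to 5.90 CPM in BSA and 7.79 to 9.24 CPM in PA.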

How the data were processed

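The authors prepared strand-specific, poly(A)-selected libraries and aligned the reads to GRCm39 with STAR. They counted read pairs per gene of Ensembl release 105 with featureCounts 2.0.0 (reverse strand setting 2, mapping quality of at least 3). The deposited counts are whole and not normalized, and this table was analysed. A deposited table of log2 values held log2(count divided by a size factor, plus 1) for 21772 genes and was used only to check the gene set.

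The minimum for testing a gene was a sum of 10 counts across all 18 libraries (21772 of 55414 genes passed). Main tests used edgeR 4.0.16 quasi-likelihood fits with TMM factors from all 18 libraries and Benjamini-Hochberg FDR over all genes tested. The common effect was 1 siMk5 coefficient with medium as blocking factor in 12 libraries. Effects per medium and their interaction came from a fit with 1 coefficient per group. CPM are TMM-normalized. Alternatives were DESeq2 1.42.0, other size factors, filters, blocks and models, and leaving out each library. Mapkapk5 was tested on log2 CPM with a two-sided exact permutation test within media. The scripts were tested on simulated data. No 2 libraries of a group agreed within sampling noise (chi-square per degree of freedom of at least 2.755). Intervals are not given for single libraries, and depth per library is in the report.

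Named genes were drawn from Mapkapk5, Mapk6, the 30 alike genes with the smallest adjusted p, 5 genes each for calls that were not alike and for the interaction, called members of the lists and up to 4 members of each list with the smallest p, of which the text gives examples. Other genes are marked as chosen after their values were seen. The result of 1 gene is not reported here. The part studied, the rules and the gene lists were chosen with earlier results of these data known. Coordinates are GRCm39. The gene annotation used for names and biotypes is GENCODE M39.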

Additional observations from a re-analysis of the deposited data

Results flagged for a closer look

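Among the genes reported here, 16 differed between media in their response to siMk5 by the interaction term (edgeR FDR under 0.05, 3 libraries per group). In 15 interferon-stimulated genes the log2 fold change with siMk5 was negative in PA and lay near 0 in BSA, between -0.06 (Irgm2) and 0.19 (Gbp2). The difference of the log2 fold changes (PA minus BSA) was -1.41 for Gbp2, -1.20 for Gbp3, -1.08 for Tap1, -1.07 for Bst2, -0.94 for Gbp7, -0.93 for Parp14, -0.86 for Irgm2, -0.80 for Sp100, -0.77 for Oasl2, -0.77 for Rnf213, -0.76 for Parp12, -0.75 for Dtx3l, -0.71 for Parp9, -0.64 for Eif2ak2 and -0.63 for Irgm1. Gbp2, an interferon-induced GTPase, stood at 3.16 to 3.78 CPM in siNtc BSA and 3.92 to 4.28 CPM in siMk5 BSA, but at 10.8 to 14.98 CPM in siNtc PA and 5.01 to 6.02 CPM in siMk5 PA. Trdn went the other way, with a difference of 0.67 (FDR = 0.0397), its log2 values being -0.82 in BSA and -0.14 in PA. It measured 21.1, 16.5 and 17.4 CPM in siNtc BSA and 12.04, 10.9 and 7.69 CPM in siMk5 BSA.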

How the results depend on the processing

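For the effect common to both media, 96 genes became 147 with the FDR alone, 53 and 46 with the mean of both media in 12 and 18 libraries, 47 with DESeq2 and 61 to 112 when 1 library was left out. Of the calls, 17 of 96 were higher, against 19 of 53 and 20 of 46 with the mean of both media. In BSA, 24 genes became 10 with filterByExpr, 62 with no filter, 14 with 18 libraries and 7 to 41 when 1 library was left out, and the split of 6 higher and 18 lower became 4 and 3 without siMk5 BSA replicate 3. For the interaction, 55 genes became 128 with no filter and 41 to 88 when 1 library was left out. The 31 alike genes became 102 with an unadjusted p under 0.05 and the same sign in each medium, 22 (12 higher and 10 lower) and 21 (12 and 9) with the mean of both media in 12 and 18 libraries and 24 to 44 when 1 library was left out. With DESeq2 all 23 alike genes were among the 31, and with the 18S share as a covariate 22 of 32. Each fit with 1 library left out kept 22 to 27 of the 31 as alike. Called interferon genes fell from 38 to 12 with DESeq2 and to 11 and 8 with the means of both media in 12 and 18 libraries. The 126 calls in PA stayed between 103 and 139 when 1 library was left out, and siMk5 against siErk3 gave 226 with DESeq2 in place of 250. The difference of Mapkapk5 on CPM was -0.883 (exact permutation test, p = 0.005). In its effect common to both media, no called gene named in the text changed sign in the alternatives run. Values within 1 medium were not checked in this way, and the BSA value of Xirp2 changed sign without siMk5 BSA replicate 3. The causes were not tested. The labels number the replicates alike in each group. Deviations of same-numbered siNtc and siMk5 libraries from their group means correlated at 0.241, 0.178 and 0.045 in BSA and at -0.511, 0.026 and -0.42 in PA (10553 genes), so the numbers were not taken as pairs. With the replicate block there were 98 common calls, 29 in BSA, 131 in PA, 79 for the interaction, 35 alike genes and 285 against siErk3, and 33 alike genes with the replicate block within medium. Low counts limit the BSA values of Mx1, Cmpk2, Rsad2 and Oas1g. Alternatives on the mean of both media for the alike count, and the block and DESeq2 fits against siErk3, were chosen after seeing the data.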

Other observations

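The lists of the extracellular matrix and the cell cycle held no called gene, and the direction of the lists was not tested. Of 32 matrix genes, 28 were higher in BSA (median log2 0.05) and 29 lower in PA (median -0.15), with Col1a1 at -0.05 and -0.32 and Dcn at -0.10 and -0.37. Without siMk5 BSA replicate 3, 16 of the 32 were higher and 16 lower in BSA, so the excess of higher matrix genes in BSA rests on that library. Of 28 cell cycle genes, 26 were higher in BSA (25 without that library) and 25 lower in PA, with medians of 0.07 and -0.06. Of 23 genes of sterol and fatty acid synthesis, 22 were higher in BSA and 15 in PA, 15 of them in both, with medians of 0.07 and 0.03.

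Of the 28 genes that passed the FDR in the common fit under the fold limit and differed in the same direction in both media, 14 were higher and 14 lower. Outside the muscle lists, and chosen after their values were seen, Map3k7cl had the smallest FDR (common log2 -0.37, FDR = 0.000151, -0.38 in BSA and -0.36 in PA). Nptx1, a neuronal pentraxin, followed at 0.29 (FDR = 0.000329, 0.30 in BSA and 0.28 in PA), and Patj, a tight junction scaffold, at 0.29 (FDR = 0.000947). Ccn2, a matricellular growth factor, was at -0.18 (FDR = 0.0104).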
